A study of Mus musculus with 8 samples.

Results

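Fatty acid elongases of the ELOVL family and desaturases of the FADS family build the long and polyunsaturated fatty acids of retinal membranes. The transcripts described here are those of Elovl1 to Elovl7 and Fads1 to Fads3, taken by gene symbol alone, which makes 10 of the 43472 symbols listed. All 10 are named and 8 of them had enough counts to be tested. In neural retinas of Mfp2-/- mice at 3 weeks of age, Elovl4 and Elovl2 were lower and Elovl5, Fads1 and Fads3 were higher than in controls. Elovl6, Elovl7 and Elovl1 did not pass the test, and Fads2 and Elovl3 were too low to be tested.

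Each round of elongation adds a pair of carbons to an acyl chain in the endoplasmic reticulum. The ELOVL enzyme carries out the first step and sets which chain lengths are used, while a reductase, a dehydratase and a second reductase complete the round. FADS enzymes insert double bonds with electrons from cytochrome b5. In the polyunsaturated pathway FADS2, ELOVL5, FADS1 and ELOVL2 act in alternation, and the last long product is shortened to docosahexaenoic acid (DHA) by peroxisomal β-oxidation, of which MFP2 is an enzyme. ELOVL4, an enzyme of photoreceptors, lengthens polyunsaturated chains further into the very long chain species of the outer segments.

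The study compared whole neural retinas, dissected away from the retinal pigment epithelium (RPE), of 4 Mfp2-/- mice and 4 control mice. Of the controls, 3 were Mfp2+/+ and 1, control replicate 2, was Mfp2+/-. All mice were 3 weeks old (postnatal day 21), had a C57BL/6J background and came from heterozygous breeding pairs. The loss is constitutive, so that other organs and the RPE lack the enzyme too. Both retinas of a mouse were pooled into 1 library of 3′ end reads, made with the QuantSeq kit, which reads a transcript near its end and whose counts therefore do not rise with transcript length. The comparison of Elovl4 addresses whether its expression was increased where polyunsaturated chains of extreme length had accumulated.

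Counts in genes came to 1895485 to 2826553 per Mfp2-/- library and to 2340974 to 3226187 per control library. Hsd17b4, which encodes MFP2, had 1, 0, 1 and 0 counts in Mfp2-/- libraries 1 to 4 and 47, 20, 78 and 37 counts in control libraries 1 to 4. Reads outside genes made up 10.8% and 15.7% of the reads in Mfp2-/- replicates 2 and 3, against 22.6% to 29.9% in the control libraries, and lens markers reached 5970 and 3470 CPM (counts scaled to library size with TMM factors) in the same pair of libraries, against 304 to 1380 CPM in controls. Defining rod markers were present in all libraries, and the 20 of them summed to 1930 to 2870 CPM in Mfp2-/- retinas and to 53300 to 63200 CPM in control retinas. Because whole retinas were sequenced, fewer cells of a type and less RNA per cell cannot be told apart from these counts alone. For photoreceptors, the paper reports from histology at the same age that their nuclei were normal in number. Cell numbers of the sequenced retinas were not tested.

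The promoter windows of 4 members that changed are shown as the sequences before an annotated start. Where these transcripts start in retina was not tested, since 3′ end reads do not show it. RefSeq (GRCm38.p6) gave a window for 8 of the 10 members. The 250 bases before the annotated start are printed 5′ to 3′ on the strand of the gene, and capitals mark any match to 1 of 3 motifs searched on both strands. These were TAATCC (bound by the photoreceptor factor CRX), CCAAT (bound by NF-Y) and CACGTG (an E-box).
Elovl4, chr9:83806306-83806555, minus strand: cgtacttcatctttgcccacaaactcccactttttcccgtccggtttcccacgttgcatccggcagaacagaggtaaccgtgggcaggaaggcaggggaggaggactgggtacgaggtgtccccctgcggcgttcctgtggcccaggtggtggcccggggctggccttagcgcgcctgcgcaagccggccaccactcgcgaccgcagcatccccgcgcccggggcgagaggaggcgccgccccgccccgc
Elovl2, chr13:41220404-41220653, minus strand: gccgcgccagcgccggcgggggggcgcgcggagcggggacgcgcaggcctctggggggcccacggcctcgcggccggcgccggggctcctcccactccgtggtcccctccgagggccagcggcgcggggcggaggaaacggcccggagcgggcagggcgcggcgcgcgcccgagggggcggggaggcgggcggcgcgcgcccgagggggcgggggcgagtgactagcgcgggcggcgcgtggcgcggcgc
Elovl5, chr9:77917115-77917364, plus strand: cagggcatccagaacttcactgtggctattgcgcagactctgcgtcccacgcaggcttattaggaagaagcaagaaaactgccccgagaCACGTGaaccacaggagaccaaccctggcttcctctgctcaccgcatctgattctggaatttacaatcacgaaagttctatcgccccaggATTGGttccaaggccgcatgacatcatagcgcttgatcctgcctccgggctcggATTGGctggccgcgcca
Fads3, chr19:10041298-10041547, plus strand: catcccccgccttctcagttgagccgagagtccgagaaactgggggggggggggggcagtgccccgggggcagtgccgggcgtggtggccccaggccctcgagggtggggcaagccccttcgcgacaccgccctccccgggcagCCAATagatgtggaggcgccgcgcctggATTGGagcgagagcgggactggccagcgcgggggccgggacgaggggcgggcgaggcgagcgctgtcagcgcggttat

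CCAAT, read as ATTGG on the other strand, lay 71 and 17 bases before the start of Elovl5, and an E-box lay 161 bases before it. Fads3 had matches to CCAAT 106 and 78 bases before its start, and Elovl1 had 1 match 35 bases before its start. No motif overlapped another, and the windows of Elovl4, Elovl2, Elovl6, Elovl7 and Fads2 held none of these letters. Among all 32851 windows of this length 33.8% held CCAAT, 6.02% the E-box and 6.25% TAATCC. A match is a description of the sequence and not evidence of binding. Elovl3 and Fads1 had no window.

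In the genome (GRCm38, GENCODE annotation) Elovl4 lies at chr9:83778692-83806277 and Elovl5 on the same chromosome at chr9:77917364-77984519. Elovl2 is at chr13:41182381-41220405 and Elovl7 at chr13:108214404-108285683. The 3 Fads genes are neighbours within 155309 bp, with Fads3 at chr19:10041569-10060110, Fads2 at chr19:10062765-10101746 and Fads1 at chr19:10182888-10196877. Elovl3 lies further along at chr19:46131897-46135694, Elovl1 at chr4:118428093-118432953 and Elovl6 at chr3:129532355-129638495. Counts were taken over exons, and exons of Elovl1 and Cdc20 share 53 bp on opposite strands. Cdc20 had 20 counts over all libraries against 212 of Elovl1.

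The levels of the 10 transcripts differed widely. In Mfp2-/- retinas Fads1 (mean 110 CPM), Elovl4 (102 CPM), Elovl5 (75.8 CPM) and Elovl6 (68.5 CPM) were at the top, with ranges that overlapped from each to the next, followed by Fads3 (20.4 CPM), Elovl2 (17.4 CPM), Elovl7 (13.6 CPM) and Elovl1 (11.8 CPM), whose ranges also overlapped from each to the next. Fads2 (2.2 CPM) and Elovl3 were lowest. In control retinas Elovl4 led at 393 CPM and stood clear of Elovl6 (70.2 CPM), Fads1 (49.5 CPM), Elovl5 (40.2 CPM) and Elovl2 (32.3 CPM), of which only Elovl5 and Elovl2 overlapped as neighbours. Elovl7 (11.5 CPM), Elovl1 (8.25 CPM) and Fads3 (7.03 CPM) overlapped from each to the next, and Elovl3 and Fads2 had 0 counts. The single dominant transcript of the control retina was thus 1 of 4 transcripts of similar level in Mfp2-/- retinas.

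**Figure D1:**
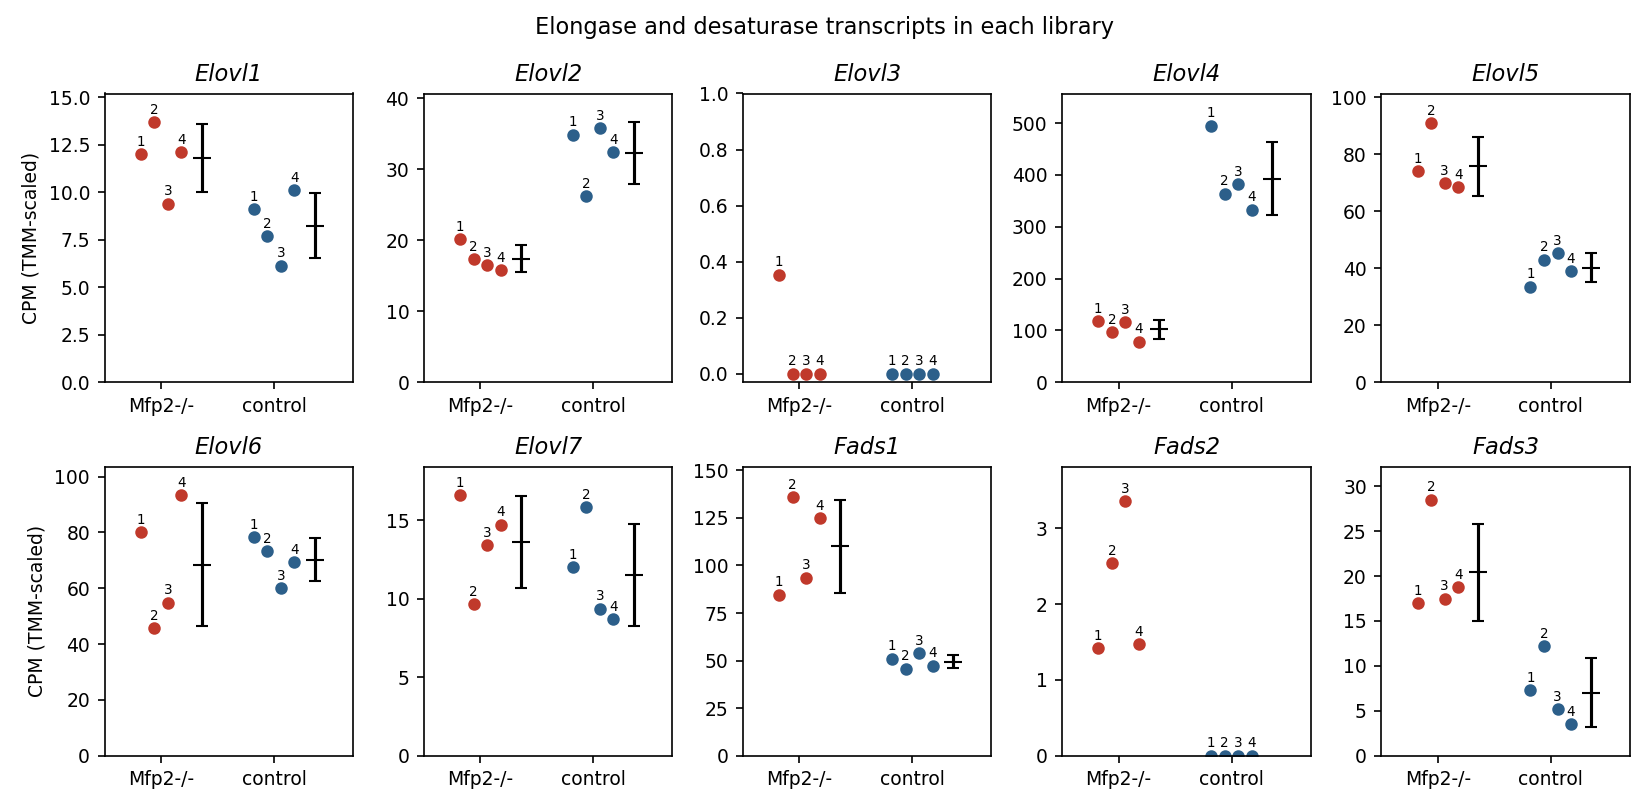
Level of each elongase and desaturase transcript in CPM (TMM-scaled, linear axes that differ between panels) in the 4 Mfp2-/- libraries (red) and the 4 control libraries (blue), with replicate numbers above the points and mean ± SD beside them. All Mfp2-/- points of Elovl4 lie at 78.3 to 118 CPM, below all control points at 333 to 495 CPM, whereas the Mfp2-/- points of Elovl5, Fads1 and Fads3 lie above their control points.

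The groups were compared by the quasi-likelihood test of edgeR, p-values were adjusted over the 12516 genes that passed the filter on low counts (Benjamini-Hochberg), and a gene was called at an adjusted p under 0.05. Of the 8 members tested 5 were called, where 27.0% of all genes tested were called. Of these, 3 were higher, where 13.8% of all genes were called higher, and 2 were lower, where 13.2% were called lower. The groups did not overlap in 5 of the 8 members tested, which were the 5 called, where they did not overlap in 30.9% of all genes tested (15.1% with Mfp2-/- above control and 15.8% with Mfp2-/- below). The median log2 fold change of the 8 members was 0.39, beside -0.004 over all genes tested.

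Elovl4, the elongase of the very long polyunsaturated chains, had the lowest log2 fold change of the 8 members tested. It was at 118, 96, 116 and 78.3 CPM in Mfp2-/- retinas 1 to 4, against 495, 364, 382 and 333 CPM in control retinas 1 to 4, which rest on 189 to 346 counts and on 804 to 1360 counts. The highest Mfp2-/- retina was far below the lowest control. The mean was 102 ± 18.8 CPM in Mfp2-/- and 393 ± 70.7 CPM in control retinas (SD, n = 4 each). Its log2 fold change was -1.94 (standard error 0.18, 95% interval -2.34 to -1.54, edgeR adjusted p = 2.4e-05), a level 3.85-fold lower. Of all genes tested 2.64% fell at least as far.

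Elovl2, which elongates polyunsaturated chains to the precursor of DHA, was also lower. Mfp2-/- retinas 1 to 4 had 20.2, 17.3, 16.5 and 15.8 CPM and control retinas 1 to 4 had 34.9, 26.2, 35.8 and 32.4 CPM. Here too the groups were separate, and the lowest control was the Mfp2+/- retina. The means were 17.4 ± 1.92 CPM in Mfp2-/- and 32.3 ± 4.32 CPM in control retinas (SD, n = 4 each), with a log2 fold change of -0.89 (standard error 0.16, edgeR adjusted p = 0.00248).

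Elovl5, which elongates polyunsaturated chains of shorter length than ELOVL2 does, changed the other way. Its level was 74, 91, 69.9 and 68.4 CPM in Mfp2-/- retinas 1 to 4, against 33.5, 43, 45.2 and 39 CPM in control retinas 1 to 4. Every Mfp2-/- retina was above every control, with the lowest Mfp2-/- retina at 68.4 CPM and the highest control at 45.2 CPM. With means of 75.8 ± 10.4 CPM in Mfp2-/- and 40.2 ± 5.12 CPM in control retinas (SD, n = 4 each), the log2 fold change was 0.91 (standard error 0.15, edgeR adjusted p = 0.00120).

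Among the remaining elongases, none was called. Elovl6, which lengthens saturated chains made by fatty acid synthase, was at 80, 45.7, 54.8 and 93.4 CPM in Mfp2-/- retinas 1 to 4 and at 78.2, 73.3, 60 and 69.3 CPM in control retinas 1 to 4. The controls lay inside the range of the Mfp2-/- retinas, of which replicates 2 and 3 were lowest. These are the libraries with few reads outside genes and high lens markers. The log2 fold change of Elovl6 was -0.03 (95% interval -0.5 to 0.44, edgeR adjusted p = 0.930), and it was above 0 with upper-quartile factors (0.08) and with no factors (0.09), but not with the other scalings tried, and 0.30 without Mfp2-/- replicates 2 and 3.

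Elovl7, which elongates long saturated and unsaturated chains, had 16.6, 9.65, 13.4 and 14.7 CPM in Mfp2-/- retinas 1 to 4. Control retinas 1 to 4 had 12, 15.8, 9.35 and 8.71 CPM of Elovl7. Elovl1, the elongase of saturated and monounsaturated very long chains of sphingolipids, had 12, 13.7, 9.41 and 12.1 CPM in Mfp2-/- retinas 1 to 4, against 9.1, 7.69, 6.13 and 10.1 CPM in control retinas 1 to 4. Both genes had overlapping groups. Their log2 fold changes were 0.27 for Elovl7 (95% interval -0.29 to 0.83, edgeR adjusted p = 0.450) and 0.51 for Elovl1 (95% interval -0.01 to 1.03, edgeR adjusted p = 0.134), so that a doubling of Elovl1 lies within its interval. Elovl3, an elongase of skin and brown fat, had 1 count in Mfp2-/- replicate 1 and 0 in all other libraries.

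The desaturases were higher in Mfp2-/- retinas in each case where a test was made. Fads1, the desaturase that forms arachidonic and eicosapentaenoic acid, was at 84.6, 136, 93.5 and 125 CPM in Mfp2-/- retinas 1 to 4, against 51, 45.7, 53.9 and 47.4 CPM in control retinas 1 to 4. All Mfp2-/- retinas were above all controls, and they varied more among themselves. With means of 110 ± 24.5 CPM in Mfp2-/- and 49.5 ± 3.66 CPM in control retinas (SD, n = 4 each), the log2 fold change of Fads1 was 1.14 (standard error 0.17, edgeR adjusted p = 6.8e-04), which is 2.21-fold higher.

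Fads3, which desaturates the sphingoid base of ceramides, was at 17, 28.5, 17.5 and 18.8 CPM in Mfp2-/- retinas 1 to 4 and at 7.28, 12.2, 5.16 and 3.48 CPM in control retinas 1 to 4. The groups were separate, and the highest library of each was replicate 2. Means were 20.4 ± 5.41 CPM in Mfp2-/- and 7.03 ± 3.79 CPM in control retinas (SD, n = 4 each), and the log2 fold change of 1.56 had the widest standard error of the 8 members tested (0.34, edgeR adjusted p = 0.00738).

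Fads2, the first desaturase of the polyunsaturated pathway, was scarcely detected. It had 4, 5, 10 and 4 counts in Mfp2-/- libraries 1 to 4 and 0 counts in each of the 4 control libraries. Set against a floor of 3 counts over the control group, the summed 23 counts in Mfp2-/- retinas were 7.99-fold higher after scaling. This fold leaves out the spread of the Mfp2-/- counts, so it is not a lower limit. Fads2 was below the filter on low counts and so was not among the genes tested. The annotation release used in counting is not given, and whether it covers the 3′ end that Fads2 uses in retina was not tested. A level of 0 in controls therefore says only that no read was counted to the gene at this depth, and the fold refers to the counted reads.

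Of the 8 members with counts in controls, the Mfp2+/- library lay inside the range of the 3 Mfp2+/+ libraries for 4 and outside it for 4. Any 1 of 4 libraries without a genotype difference would lie outside the other 3 about as often. Those outside were Elovl2 (26.2 CPM, against 32.4 to 35.8 CPM in Mfp2+/+), Fads1 (45.7 CPM, against 47.4 to 53.9 CPM), Fads3 (12.2 CPM, against 3.48 to 7.28 CPM) and Elovl7 (15.8 CPM, against 8.71 to 12 CPM). The 5 calls were kept in all 18 alternatives, which included the fit without this library, with log2 fold changes of -2.01 to -1.82 for Elovl4, -0.99 to -0.77 for Elovl2, 0.82 to 1.04 for Elovl5, 1.02 to 1.27 for Fads1 and 1.34 to 1.92 for Fads3.

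The share of each enzyme in the summed counts of the 10 genes shifted. Elovl4 made up 27.9%, 21.8%, 29.5% and 18.3% in Mfp2-/- retinas 1 to 4 and 68.7%, 61.9%, 64% and 61.3% in control retinas 1 to 4. The 3 Fads genes together made up 24.3% to 37.9% in Mfp2-/- retinas and 8.08% to 9.88% in control retinas. Neither share overlapped between the groups. Both are parts of the same total, so the fall of Elovl4 by itself raises the share of the Fads genes. In CPM the 3 Fads genes summed to 103 to 167 in Mfp2-/- retinas and to 50.9 to 59 in control retinas. Summed over the 10 genes the level was 424, 440, 395 and 428 CPM in Mfp2-/- retinas and 721, 588, 598 and 543 CPM in control retinas. Without Elovl4 the other elongases summed to 164 to 204 CPM in Mfp2-/- and 156 to 168 CPM in control retinas, so that the elongases other than Elovl4 had overlapping sums.

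**Figure D2:**
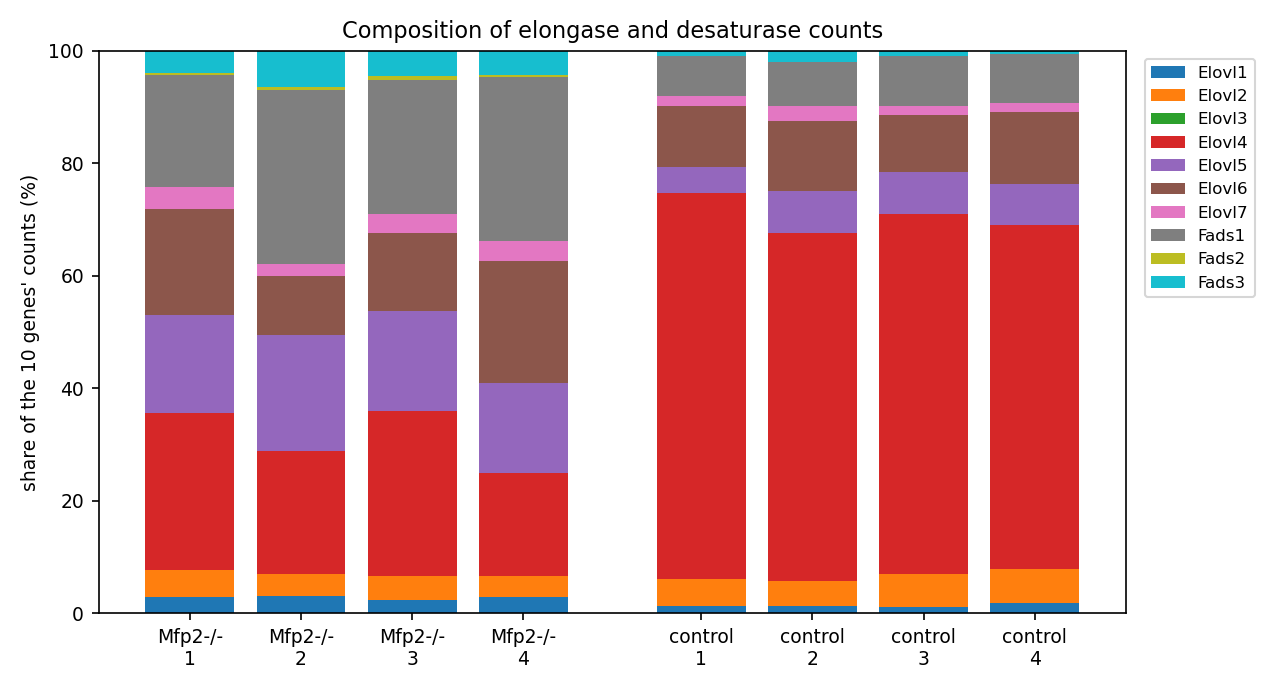
Share (%) of each of the 10 genes in their summed counts, 1 bar per library, the 4 Mfp2-/- libraries on the left and the 4 control libraries on the right. Elovl4 (red) takes 18.3% to 29.5% of the Mfp2-/- bars and 61.3% to 68.7% of the control bars.

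Ratios between pairs of enzymes were taken within each library. They were compared by two-sided exact permutation tests over the libraries for 3 pairs (CPM + 0.5), where the smallest p that 4 retinas against 4 allow is 0.0286. The ratio of Elovl2 to Elovl4 was 0.145 to 0.207 in Mfp2-/- retinas and 0.0715 to 0.0987 in control retinas, 2.1-fold higher in Mfp2-/- (exact permutation test, p = 0.0286, adjusted p = 0.0286). Elovl2 was thus lower in Mfp2-/- retinas but less so than Elovl4. Elovl1 to Elovl4 was 0.0849 to 0.16 in Mfp2-/- retinas and 0.0173 to 0.0318 in control retinas, 5.45-fold higher (exact permutation test, adjusted p = 0.0286). Elovl1 itself was not called (log2 fold change 0.51, edgeR adjusted p = 0.134), whereas Elovl4 was 3.85-fold lower. Only 2.64% of all genes tested fell at least as far as Elovl4, so most genes have a higher ratio to Elovl4 in Mfp2-/- retinas. Fads1 to Fads2 was lower in Mfp2-/- retinas by a log2 difference of -1.25 (exact permutation test, adjusted p = 0.0286), but control Fads2 was at 0, so the control ratio is set by the added 0.5 and by library scaling. With CPM + 0.1 the difference was -3.31, and with CPM + 2 it was 0.05 and the test was not passed.

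The fall of Elovl4 and Elovl2 was then set against that of rod transcripts, most of which encode the phototransduction cascade and outer segment, with transcription factors such as Nrl among them, and some of which, such as Rcvrn, cones express too. All 20 rod markers were called lower, with a median log2 fold change of -4.35, which is 20.3-fold. Sag (rod arrestin) averaged 471 ± 78 CPM in Mfp2-/- and 8870 ± 1990 CPM in control retinas, and Gnat1 (rod transducin) averaged 109 ± 13.5 CPM in Mfp2-/- and 4560 ± 706 CPM in control retinas (SD, n = 4 each). The least changed was Guca1a (guanylate cyclase activator) at -3.03 and the most changed Pde6b (a rod phosphodiesterase subunit) at -6.60. Not 1 of the 20 rod markers fell less than Elovl4.

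In the test of this difference the library size was replaced by a rod index, the geometric mean of the rod markers, treated as known. The index was 89.3, 64.7, 61.3 and 60.7 CPM in Mfp2-/- retinas 1 to 4 and 1650, 1540, 1540 and 1440 CPM in control retinas 1 to 4. The change of Elovl4 minus that of the rod markers was 2.56 on the log2 scale (95% interval 2.09 to 3.03, edgeR adjusted p = 2.7e-10), and that of Elovl2 was 3.59 (95% interval 3.06 to 4.13, edgeR adjusted p = 7.5e-12). All 8 members tested were higher relative to rod transcripts, where 99.5% of all genes tested were and 0.0879% were lower, so this separates the members from rod markers but not from other retinal genes. Per unit of rod index, Elovl4 was at 1.32, 1.48, 1.9 and 1.29 in Mfp2-/- retinas and at 0.3, 0.236, 0.248 and 0.231 in control retinas.

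**Figure D3:**
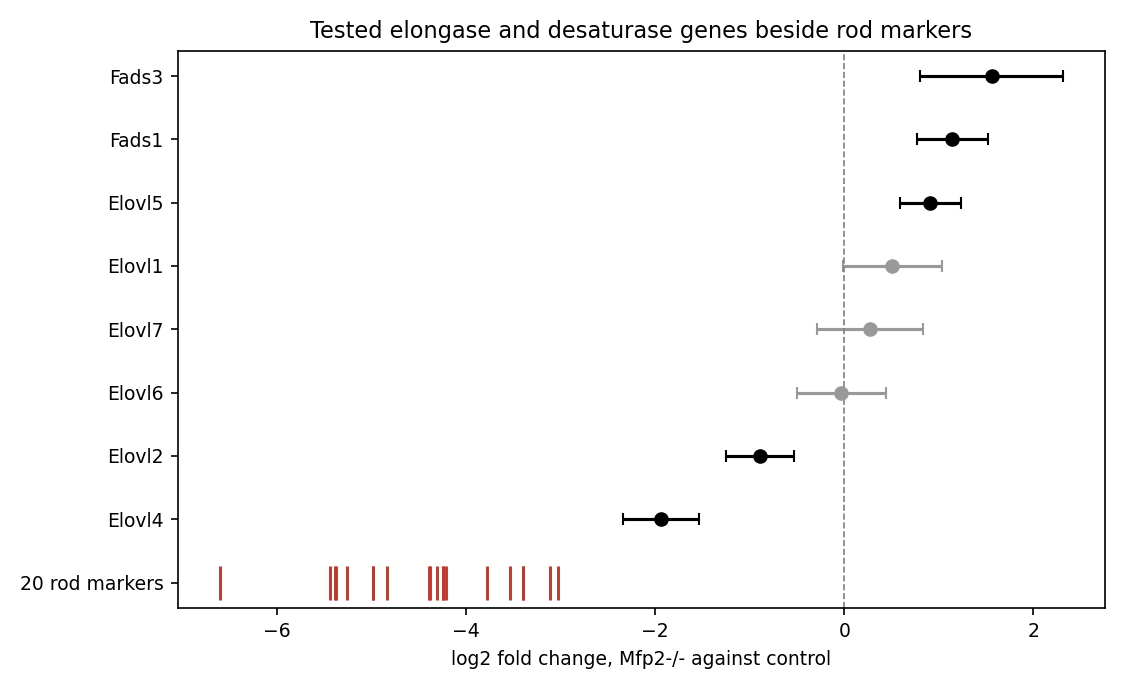
Log2 fold change, Mfp2-/- against control, of the 8 tested members (points with 95% intervals, black where called by edgeR and grey where not) and of the 20 rod markers (red ticks). The rod markers lie between -6.60 and -3.03, all to the left of Elovl4 at -1.94.

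Markers of several other cell types also differed between the groups, and their part in the results was not tested. The sums of horizontal cell, RPE and lens markers overlapped between the groups. Beside the counts of markers called, 13.8% of all genes tested were called higher and 13.2% lower. Cone markers, 8 of 12 called lower and 2 higher, summed to 1100 to 1210 CPM in Mfp2-/- and 1800 to 2020 CPM in control retinas. Bipolar cell markers, 9 of 12 called higher and 1 lower, summed to 2600 to 3390 CPM in Mfp2-/- and 2190 to 2580 CPM in control retinas. Ganglion cell markers, 7 of 10 called higher but 2 to 8 when single libraries were left out (2 without control replicate 2, control replicate 4 or Mfp2-/- replicate 3, and 3 without control replicate 1), summed to 2510 to 3010 CPM in Mfp2-/- and 1690 to 2230 CPM in control retinas. Amacrine cell markers, 3 of 10 called higher, summed to 2430 to 2510 CPM in Mfp2-/- and 1920 to 2010 CPM in control retinas. Endothelial markers, 3 of 8 called higher, summed to 620 to 727 CPM in Mfp2-/- and 438 to 493 CPM in control retinas. Their log2 fold changes ran from -0.48 to 1.84. Horizontal cell markers, 1 of 7 called lower, summed to 642 to 912 CPM in Mfp2-/- and 770 to 980 CPM in control retinas.

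Müller glia markers, 8 of 12 called higher, summed to 5030 to 6810 CPM in Mfp2-/- and 3960 to 4580 CPM in control retinas. Their log2 fold changes ran from -0.52 to 1.95. Microglia markers, 11 of 11 tested called higher, summed to 423 to 558 CPM in Mfp2-/- and 81.3 to 104 CPM in control retinas. Markers of reactive glia, 6 of 6 tested called higher, summed to 664 to 912 CPM in Mfp2-/- and 28.2 to 43.3 CPM in control retinas. RPE markers, 0 of 8 tested called by edgeR (3 at an unadjusted p under 0.05, 1 called by limma-voom and 1 by DESeq2), summed to 320 to 567 CPM in Mfp2-/- and 209 to 437 CPM in control retinas. Lens markers summed to 1980, 5970, 3470 and 322 CPM in Mfp2-/- retinas 1 to 4 and to 304 to 1380 CPM in control retinas. Of 8 lens markers edgeR called 3 higher and limma-voom 0. This count was 0 without control replicate 2, 1 without control replicate 3, control replicate 4 or Mfp2-/- replicate 3, 2 without Mfp2-/- replicate 2, 5 without control replicate 1 and 8 without Mfp2-/- replicate 4. Without Mfp2-/- replicates 2 and 3, in which lens markers were highest, the log2 fold changes were -2.00 for Elovl4, -0.85 for Elovl2, 0.82 for Elovl5, 1.07 for Fads1 and 1.38 for Fads3, and all 5 were still called.

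The genes nearest to Elovl4 in their pattern over the 8 libraries, by the root mean square difference of centred log2 CPM among 9347 genes at a mean of 10 CPM or more, were Osbp2 (0.167), Rd3 (0.173), Hk2 (0.19), Slc17a7 (0.192) and Tbc1d8 (0.192), beside a median difference of 1.02. Rd3 is a photoreceptor protein that restrains guanylate cyclase, Hk2 a hexokinase and Slc17a7 the vesicular glutamate transporter of photoreceptors and bipolar cells. Nearest to Elovl2 were Epas1 (0.083), Zbed4 (0.091), Pde8b (0.092), Tmem106c (0.097) and Synrg (0.099), beside a median of 0.55. None of the 20 rod markers was among the 5 nearest to either. This follows from their larger falls, since the difference includes the size of the change, and is no separate result.

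Of the other genes of the pathway, 32 in 4 lists were tested, of which 12 were called higher and 4 lower. Of all genes tested 13.8% were called higher and 13.2% lower, which are also the shares to set beside the counts of each list. Of the 7 genes that complete an elongation round 6 were tested. Of these 0 were called by edgeR, DESeq2 or limma-voom, with 0 at an unadjusted p under 0.05 in edgeR and a median log2 fold change of 0.17. Tecr, the reductase of the last step, had a log2 fold change of 0.23 (edgeR adjusted p = 0.211), Hsd17b12, the first reductase, 0.19 (edgeR adjusted p = 0.416), and the dehydratases Hacd4 and Hacd1 0.70 (edgeR adjusted p = 0.177) and 0.15 (edgeR adjusted p = 0.600).

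Other desaturases and their electron donors were called higher in 6 of 9 tested, and lower in 0, with a median log2 fold change of 0.66. Scd2, a stearoyl-CoA desaturase that makes monounsaturated fatty acids and is the main form in neural tissue, was at 300, 451, 379 and 362 CPM in Mfp2-/- retinas 1 to 4 and at 145, 140, 153 and 140 CPM in control retinas 1 to 4. Scd2 rose in every Mfp2-/- retina relative to every control, by 1.37 on the log2 scale (edgeR adjusted p = 6.0e-05). Scd3 (1.58, edgeR adjusted p = 0.00206) and Scd1 (1.56, edgeR adjusted p = 0.00549) were also called higher, but these close paralogs may share reads, so their separate values are uncertain. Cyb5a, the cytochrome b5 that passes electrons to desaturases, was higher by 0.75 (edgeR adjusted p = 0.0195). This call was lost in 5 of 18 alternatives, that of Cyb5b (0.43, edgeR adjusted p = 0.0374) in 9 and that of Cyb5r3 (0.66, edgeR adjusted p = 0.0299) in 6, whereas those of Scd1, Scd2 and Scd3 were lost in 0. The 6 calls were 3 without control replicate 2, without control replicate 3, without Mfp2-/- replicate 3 and without both Mfp2-/- replicates 2 and 3.

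Fatty acid synthesis genes did not share a direction, with 1 of 6 tested called higher and 2 lower. Me1, malic enzyme, which supplies reducing power, was lower by a log2 fold change of -0.71 (edgeR adjusted p = 0.00339), as was Acaca, acetyl-CoA carboxylase, at -0.75 (edgeR adjusted p = 0.0148). Slc25a1, the mitochondrial citrate carrier, was higher at 0.86 (edgeR adjusted p = 0.0209), a call lost without control replicate 4 or Mfp2-/- replicate 3. Fasn, fatty acid synthase itself, had a log2 fold change of 0.18 (edgeR adjusted p = 0.310).

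Regulators of these genes were called higher in 5 and lower in 2 of 11 tested. The 5 were 3 without control replicate 2 and without control replicate 4, when Mlx and Mid1ip1 lost their calls. Ppara, a nuclear receptor that responds to fatty acids, was at 3.54, 3.05, 4.37 and 2.94 CPM in Mfp2-/- retinas 1 to 4, against 25.8, 38.5, 31.6 and 33.8 CPM in control retinas 1 to 4. Its log2 fold change of -3.19 (edgeR adjusted p = 2.2e-06) lay within the range of the rod markers. Rxra, the partner receptor of PPARα, was lower at -1.03 (edgeR adjusted p = 8.4e-04). Insig1, which holds back SREBP processing and is itself an SREBP target, was higher at 1.26 (edgeR adjusted p = 0.00125), and Srebf1, an SREBP that drives fatty acid synthesis genes, at 1.16 (edgeR adjusted p = 0.00761). The count of 12 higher pathway genes was 7 without control replicate 2, 7 without Mfp2-/- replicate 3 and 8 without both Mfp2-/- replicates 2 and 3.

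**Figure D4:**
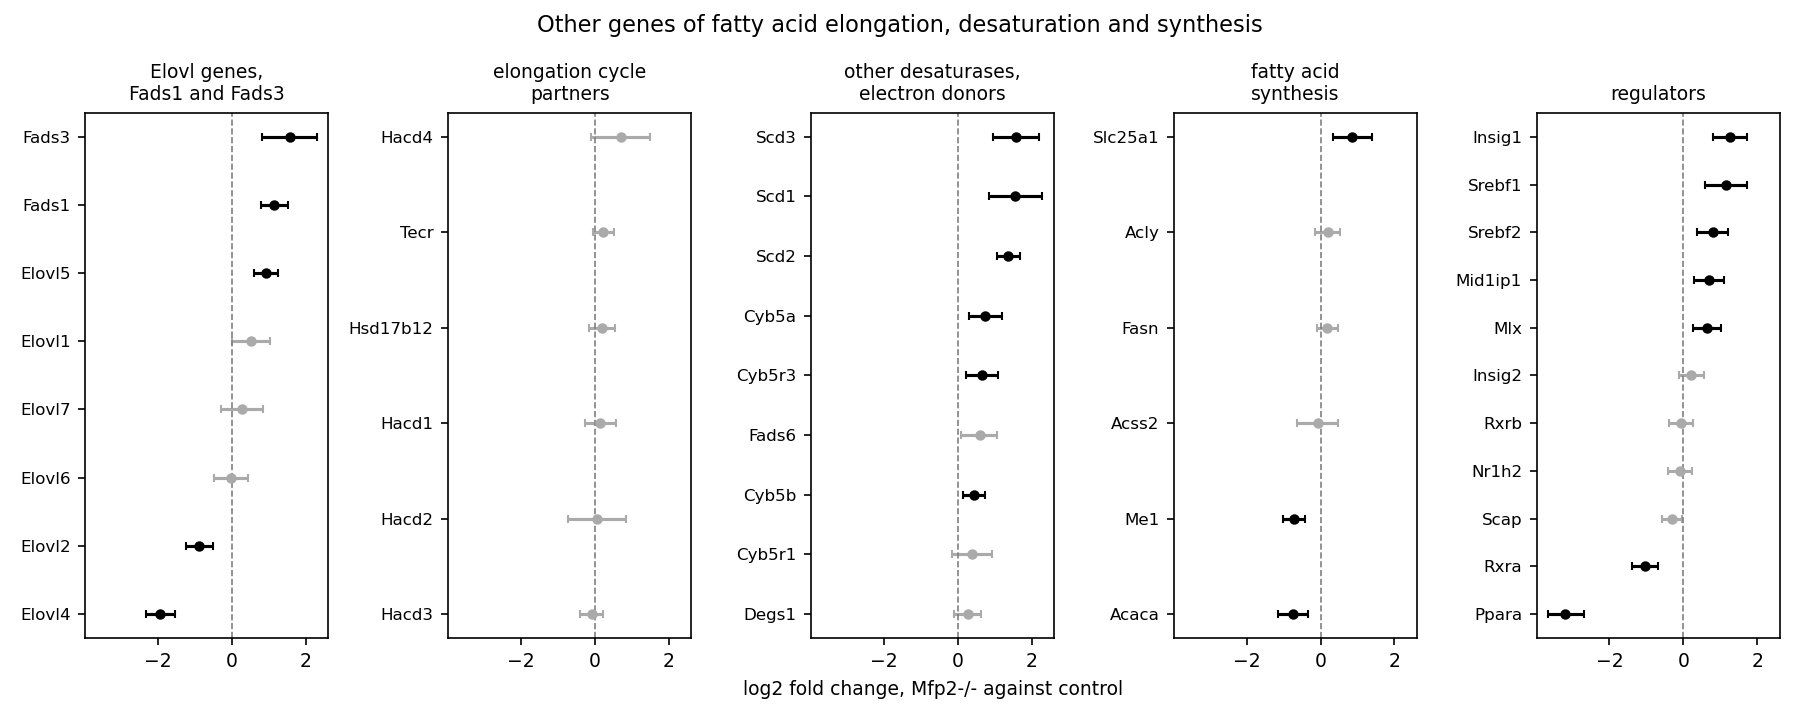
Log2 fold change, Mfp2-/- against control, with 95% intervals, of the tested members (left panel) and of the tested genes in 4 lists of the same pathway, black where called by edgeR and grey where not. None of the 6 elongation partners is called, while 6 of 9 other desaturases and electron donors are higher.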

How the data were processed

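Neural retinas of 4 Mfp2-/- and 4 control mice were sequenced, and groups were taken from the sample labels. The values used are raw counts that the authors deposited for each gene symbol, and their processing notes list FastQC 0.11.7, HISAT2, SAMtools 1.5, HTSeq 2.7.14 and mm10. Which annotation release was counted, and whether by strand, is not given in the sources used here. The table that joins all libraries was left aside. Rows of reads outside genes stayed out of library sizes. The analysis used edgeR 4.0.16 in R 4.3.3 (TMM factors, filterByExpr, quasi-likelihood test, Benjamini-Hochberg adjustment over 12516 genes). Alternatives used limma 3.58.1, DESeq2 1.42.0, other factors and filters, a replicate block and fewer libraries. Each library is 1 mouse, so p-values measure the spread between mice.

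Members and lists were chosen with earlier results of these data known. Named genes were all members, up to 4 genes per pathway list with the smallest adjusted p, 5 rod markers (the 3 highest, the least and the most changed), 5 nearest genes of Elovl4 and Elovl2, and Hsd17b4. Of these, 1 is not reported here. Cyb5b, Cyb5r3, Mlx and Mid1ip1 were named after their values were seen. Hacd1 to Hacd4 are listed under older symbols, matched through RefSeq synonyms. Reads were not collapsed by molecule, so floors cover counting error only. In simulated counts of 12037 genes, changes of 4-fold were called in 93.5% of the 62 genes that had them. For changes of 2-fold this was 42.9% of 63 genes and for 1.5-fold 9.38% of 64. Few genes were changed there, whereas 27.0% of all genes tested were called in the data, so these rates may not hold for the data.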

Additional observations from a re-analysis of the deposited data

Results flagged for a closer look

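Among the members' groups of 4 retinas, a single library stood far from the other 3 in 2 cases, by Dixon's ratio of the gap to the range, where chance gives about 1 in 20 groups. Fads3 was at 28.5 CPM in Mfp2-/- replicate 2 and at 17 to 18.8 CPM in the other Mfp2-/- retinas. Without that library Fads3 was still called. Elovl3 was at 0.354 CPM in Mfp2-/- replicate 1, which is 1 count, and at 0 in all others. With a single library above 0 the ratio is always 1, so the chance rate of about 1 in 20 does not apply to Elovl3.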

How the results depend on the processing

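The directions of Elovl1, Elovl2, Elovl4, Elovl5, Elovl7, Fads1 and Fads3 and their side of the threshold held in 18 of 18 alternatives, and those of all 8 members against rod transcripts in 14 of 14, with Elovl4 at 2.36 to 2.7 and Elovl2 at 3.51 to 3.74. Elovl6 turned to 0.08 with upper-quartile factors, 0.09 with no factors and 0.30 without Mfp2-/- replicates 2 and 3, and ranged from -0.20 to 0.11 when single libraries were left out. With no factors 2423 genes were called higher and 1291 lower, and with upper-quartile factors 2369 and 1322, against 1728 and 1649 with TMM factors, while the median over all genes moved to a log2 fold change of 0.119. The 5 member calls were the same. With no filter on low counts 4 members were called higher, as Fads2 entered through its Mfp2-/- counts alone, which is no support for it. Higher pathway genes numbered 7 to 12 when single libraries were left out.

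The log2 ratio of Fads1 to Fads2 turned to 0.05 with CPM + 2 and was -3.31 with CPM + 0.1, and single libraries left out gave -1.45 to -0.99, with an adjusted p of 0.0571 when the library was a control. In exact permutation tests without Mfp2-/- replicates 2 and 3 the differences were 1.18 for Elovl2 to Elovl4, 2.56 for Elovl1 to Elovl4 and -0.91 for Fads1 to Fads2 (adjusted p = 0.0667 each, the smallest that 2 against 4 allow). The labels do not say that replicate numbers pair the retinas, and the correlations of same-numbered deviations were 0.08, -0.16, 0.25 and 0.21. Correlations of differently numbered retinas were not taken, so these values cannot decide whether retinas were paired. With the replicate block the differences of the ratios were 1.07, 2.45 and -1.25 (exact sign-flip test, adjusted p = 0.125, the smallest possible), the 5 member calls were the same and 10 pathway genes were higher. Fads2 and Elovl3 rest on 23 and 1 counts in Mfp2-/- and 0 in control retinas, and the parts of depth and of the annotation counted were not tested.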
